A study of Mus musculus with 45 samples.

Results

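The chromatin around 6 genes of synaptic proteins (Nrgn, Dlg4, Syt1, Vamp2, Snap25 and Stx1a) was described in mouse hippocampus by acetylation of histone H3 at lysine 9 (H3K9ac). The members were all H3K9ac domains, that is regions of enriched signal, that overlap a fixed mm9 window around each gene. They numbered 30 of the 44165 domains counted in the series, with 5 at Nrgn, 6 at Dlg4, 7 at Syt1, 5 at Vamp2, 2 at Snap25 and 5 at Stx1a. Membership rests on position, within windows chosen with earlier results of these data known. The series profiled 2 mouse models of neurodegeneration in 23 H3K9ac libraries and 22 libraries of input DNA, and the input libraries have no column in the count matrix. Mice transgenic for human tau with the P301S mutation (MAPT P301S) were set against wild-type mice at 11 months (3 libraries each) and at 6 months (2 tau and 3 wild-type libraries). The 11-month mice were male and the 6-month mice female, so age and sex cannot be told apart. CK-p25 mice, female double transgenics in which the p25 activator of the kinase Cdk5 was switched on at 3 months of age, were compared with CK littermate controls 6 and 2 weeks after induction, at 4.5 and 3.5 months of age (3 libraries for each group and time). Here too, age and time since induction cannot be told apart. The labels do not give the promoter that drives the tau transgene. The 2 models were immunoprecipitated with different lots of 1 antibody, so levels were compared within a model only. The tissue is whole hippocampus, in which fewer neurons and less H3K9ac per neuron cannot be told apart, and neuronal or glial marker loci were not analysed here.

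H3K9ac is laid down by histone acetyltransferases, removed by deacetylases and found at promoters and enhancers in use. At a synapse, the calcium signal of the arriving impulse acts through synaptotagmin-1 (Syt1) on the vesicle SNARE synaptobrevin-2 (Vamp2) and the plasma membrane SNAREs SNAP-25 (Snap25) and syntaxin-1A (Stx1a), which zip together to fuse the vesicle and release transmitter. On the receiving side, PSD-95 (Dlg4) is the main scaffold under excitatory receptors, and neurogranin (Nrgn) binds calmodulin in dendritic spines. All are neuronal genes with strong expression in hippocampus.

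At each gene 1 or 2 wide domains held most of the reads. The main Nrgn domain lay at chr9:37355966-37360497 (mm9, 4532 bp) and took 78.8% of the reads of its locus. The main Syt1 domain, at chr10:108441701-108449270 (7570 bp), took 88.3%, and the main Snap25 domain, at chr2:136537201-136543827 (6627 bp), took 95.5%. The main Dlg4 domain, at chr11:69830821-69833576 (2756 bp), took 34.0% of a locus whose 6 domains are parted by gaps of 125 to 1420 bp. The main Stx1a domain, at chr5:135498919-135500651 (1733 bp), took 63.8%. Vamp2 had 2 wide domains, the first at chr11:68900586-68905912 (5327 bp) and the second at chr11:68908623-68914934 (6312 bp). The second runs past the end of the window towards Per1, a clock gene that follows Vamp2 in the GRCm38 gene order, and cannot be assigned to either gene. In the same way the first Dlg4 domain, at chr11:69827702-69829400 (1699 bp), lies on the side of the neighbouring gene Acadvl. With no mm9 annotation at hand, exons and start sites were not placed within the domains.

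The 250 bases before an annotated start are shown for the 4 genes with a promoter sequence at hand, Nrgn, Syt1, Dlg4 and Stx1a. They are RefSeq sequences on GRCm38.p6, read 5′ to 3′ on the strand of the gene. Snap25 and Vamp2, for which no such sequence was at hand, are given by name only. Capitals mark the motifs searched on both strands: the GC box GGGCGG (bound by Sp1-type factors), the core TGACG of the cyclic AMP response element, the TATA box TATAAA and the E-box CACGTG. The Nrgn start lies behind chr9:37552746-37552995 (minus strand), and its upstream bases hold 11 CpG and 1 GC box.
Nrgn: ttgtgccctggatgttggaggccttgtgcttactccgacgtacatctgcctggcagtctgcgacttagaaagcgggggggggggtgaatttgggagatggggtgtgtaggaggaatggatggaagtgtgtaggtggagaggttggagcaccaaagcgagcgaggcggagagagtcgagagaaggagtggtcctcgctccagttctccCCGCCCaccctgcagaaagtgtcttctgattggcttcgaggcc
The Syt1 stretch shown, chr10:109010976-109011225 (minus strand), precedes 1 of 2 annotated starts and holds 8 CpG and 1 GC box.
Syt1: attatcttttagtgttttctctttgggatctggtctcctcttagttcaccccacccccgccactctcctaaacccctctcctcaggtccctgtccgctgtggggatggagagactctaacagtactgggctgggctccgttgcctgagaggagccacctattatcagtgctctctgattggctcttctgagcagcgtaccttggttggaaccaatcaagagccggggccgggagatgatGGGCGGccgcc
The Dlg4 stretch shown, chr11:70023732-70023981 (plus strand), precedes 1 of 3 annotated starts and holds 14 CpG, 1 GC box and 1 TGACG, while the stretches before the other starts of Dlg4 and of Syt1 hold none of these motifs.
Dlg4: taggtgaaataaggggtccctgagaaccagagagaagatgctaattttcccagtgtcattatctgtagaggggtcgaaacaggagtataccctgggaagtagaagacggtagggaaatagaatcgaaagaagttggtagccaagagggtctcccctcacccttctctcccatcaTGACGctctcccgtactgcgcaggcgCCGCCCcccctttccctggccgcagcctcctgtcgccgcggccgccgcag
The Stx1a stretch, chr5:135023232-135023481 (plus strand), holds 9 CpG, 1 GC box and 1 TGACG.
Stx1a: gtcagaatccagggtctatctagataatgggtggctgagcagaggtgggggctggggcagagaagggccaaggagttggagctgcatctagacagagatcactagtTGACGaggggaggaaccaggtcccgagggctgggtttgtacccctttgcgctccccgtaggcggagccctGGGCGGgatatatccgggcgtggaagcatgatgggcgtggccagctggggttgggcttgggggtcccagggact
Over the 32851 promoters of the table, 32.7% hold a GC box, 17.8% TGACG, 12.4% TATAAA and 6.02% the E-box, and the median CpG count is 6. Among the stretches shown, a GC box stood at Nrgn, Syt1 and Dlg4 and also at Stx1a, where no domain was called. Which start lies in which domain was not placed, and a link between motif and change was not tested.

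The tau libraries had 4097974 to 6181925 reads in domains, and the CK-p25 and CK libraries 996369 to 4133003. Of these, the 30 domains held from 0.0899% to 0.136%, and the main domains had between 25 reads (Stx1a, in the poorest case) and 1291 reads (second Vamp2 domain, in the richest). Levels are TMM-normalised CPM, the reads of a domain scaled to the reads of its library, and differences are log2 fold changes with their standard error, tested with the quasi-likelihood F test of edgeR and adjusted over all domains of a series. A domain was called at an adjusted p under 0.05. All 30 domains were tested in the tau series and 23 in the CK-p25 series, where 7 domains of 120 to 439 bp (2 at Nrgn, 3 at Syt1 and 2 at Vamp2) were too low to test. The labels give for each library a cross correlation, a measure of how well reads of the 2 strands line up that grows with the success of an immunoprecipitation. It was 0.206 to 0.257 in tau and 0.296 to 0.342 in wild-type libraries at 11 months, ranges that did not meet, and 0.231 to 0.254 in tau and 0.242 to 0.248 in wild-type libraries at 6 months. It overlapped between CK-p25 and CK libraries at both times. In 11 of the 30 domains the width reached 1684 bp, the lower bound of the widest 25% of all domains.

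Per kilobase, the level was highest in both wide Vamp2 domains in each of the 8 groups, and the order of the other main domains changed between groups. In 11-month tau mice the second Vamp2 domain had 34.8 CPM per kb and the first 33.1 CPM per kb, ahead of Stx1a with 21.8, Dlg4 with 20.5, Nrgn with 13.7, Snap25 with 12.2 and Syt1 with 11.3 CPM per kb. In 11-month wild-type mice the first Vamp2 domain had 35.7 CPM per kb and the second 33.6 CPM per kb, ahead of Dlg4 with 28.3, Nrgn with 24.1, Stx1a with 23.6, Snap25 with 19.6 and Syt1 with 17.5 CPM per kb. In CK mice at 2 weeks Nrgn and Dlg4 lay close together, at 29.3 and 29.2 CPM per kb, and Stx1a was lowest at 20.9 CPM per kb. The remaining small domains at Syt1, Stx1a and Snap25 lay between 6.94 and 10.8 CPM per kb on average over the 23 libraries. At these 3 genes the map of density along the loci shows a plateau at the main domain and a low floor elsewhere. At Dlg4 and Vamp2 some neighbours come near the main domain, with 24.4 CPM per kb in the first Dlg4 domain beside 27.5 CPM per kb in the main one over the same libraries.

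**Figure D1:**
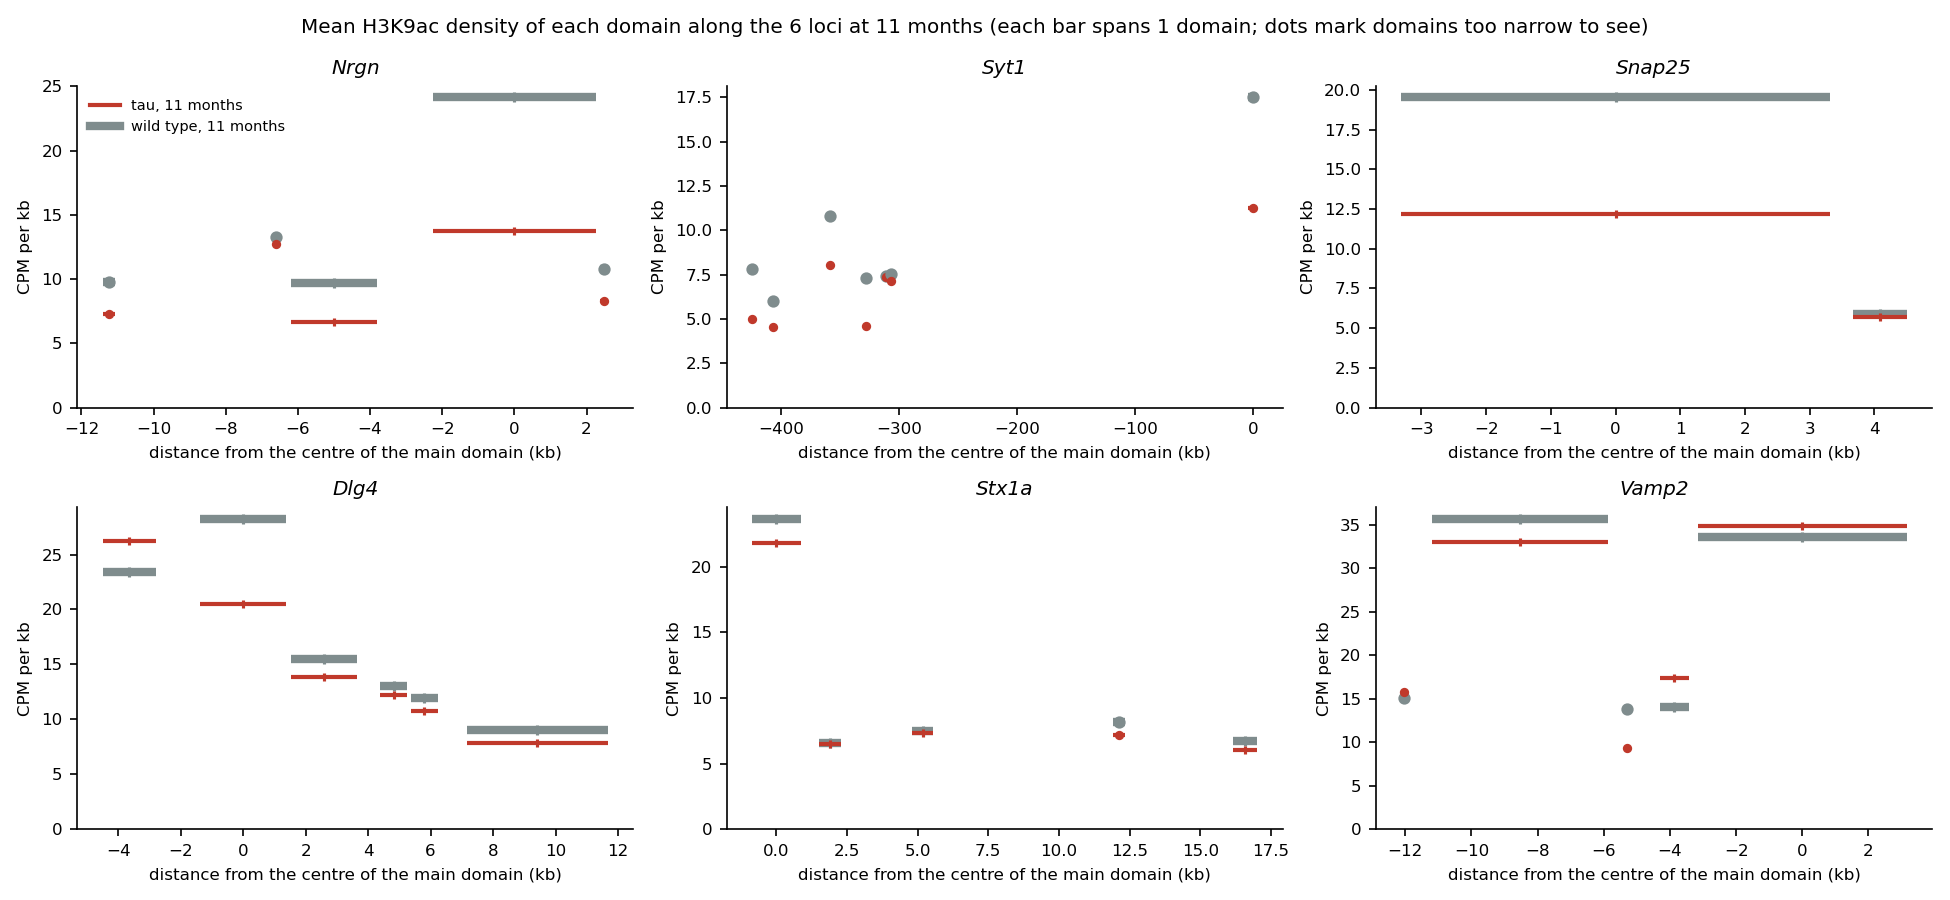
Mean H3K9ac density (CPM per kb, vertical axis) of each domain against the distance from the centre of the main domain of its locus (kb), for tau mice (thin red) and wild-type mice (thick grey) at 11 months, 3 libraries each. Each bar spans 1 domain, and dots mark domains too narrow to see. The main Nrgn domain stands at 13.7 CPM per kb in tau and 24.1 CPM per kb in wild-type mice, while the bars of both wide Vamp2 domains lie close together.

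On the receiving side of the synapse, the Nrgn locus lost more H3K9ac in 11-month tau mice than any other of the 6 loci by its point estimate. Its main domain had 67.3, 65.4 and 53.5 CPM in tau libraries at 11 months, against 116, 116 and 96.1 CPM in wild-type libraries. All tau libraries lay below all wild-type libraries. The log2 fold change was -0.82 ± 0.08 (SE), a level that fell by 43.3%, with an edgeR adjusted p of 3.59e-12. At 6 months the domain had 121 and 109 CPM in tau libraries, against 121, 112 and 114 CPM in wild-type libraries, which overlap. The log2 fold change there was -0.01 ± 0.08, with a 95% interval of -0.17 to 0.15. In order, the 11-month tau mice stood alone at 62.1 ± 7.5 CPM (SD, n = 3), and the means of the other 3 groups, 109 CPM in 11-month wild type, 115 CPM in 6-month tau and 116 CPM in 6-month wild type, lay within their spread. The neighbouring Nrgn domain at chr9:37352041-37354420 (2380 bp) had 17.2, 17.9 and 12.3 CPM in tau libraries at 11 months, against 22.2, 25.1 and 21.8 CPM in wild-type libraries. It was also lower, by a log2 fold change of -0.55 ± 0.14 (edgeR adjusted p = 0.00329), and lost the call without the third tau library.

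The main Nrgn domain was lower in CK-p25 mice as well. At 6 weeks it had 73.4, 97.1 and 90.4 CPM in CK-p25 libraries, against 103, 126 and 130 CPM in CK libraries, and the groups did not overlap. The log2 fold change was -0.44 ± 0.10 (edgeR adjusted p = 0.00437). At 2 weeks it had 114, 93.1 and 101 CPM in CK-p25 libraries, against 129, 126 and 143 CPM in CK libraries, again without overlap. This was a log2 fold change of -0.36 ± 0.09 (edgeR adjusted p = 0.0075), and it was the 1 member called at that time. The 6-week call was lost without the second CK library, without the first CK-p25 library and with cross correlation as a further term. The 2-week call was lost without the third CK library, without the second CK-p25 library, by the Wald test of DESeq2 and with cross correlation as a term (edgeR adjusted p = 0.0678).

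At Dlg4, the main domain was lower in 11-month tau mice while its neighbours were not called. It had 61.0, 55.0 and 53.7 CPM in tau libraries, against 79.2, 77.2 and 77.2 CPM in wild-type libraries, with no overlap. This gave a log2 fold change of -0.46 ± 0.07 (edgeR adjusted p = 1.08e-06). The domain 151 bp beyond it, of 2111 bp, had a log2 fold change of -0.16 ± 0.10 (edgeR adjusted p = 0.357), and the first Dlg4 domain, on the Acadvl side, one of 0.16 ± 0.09 (edgeR adjusted p = 0.289). At 6 months the main Dlg4 domain had 86.5 and 81.7 CPM in tau libraries, against 82.6, 79.5 and 77.0 CPM in wild-type libraries, which overlap, and the log2 fold change was 0.08 ± 0.08. In CK-p25 mice no Dlg4 domain was called. The main one had 73.6, 75.7 and 68.8 CPM in CK-p25 libraries at 6 weeks, against 69.4, 88.8 and 94.3 CPM in CK libraries, a log2 fold change of -0.13 with a 95% interval of -0.35 to 0.08. At 2 weeks it had 82.7, 66.5 and 71.2 CPM in CK-p25 libraries, against 84.2, 76.2 and 81.0 CPM in CK libraries, with a 95% interval of -0.31 to 0.07. The last Dlg4 domain, at chr11:69839346-69843874, is the widest of the locus (4529 bp) and the most dilute, with 10.4 CPM per kb. It had 34.5, 34.9 and 37.5 CPM in tau libraries at 11 months, against 44.1, 42.2 and 36.4 CPM in wild-type libraries, which overlap, and was not called (log2 fold change -0.20 ± 0.09, edgeR adjusted p = 0.182).

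**Figure D2:**
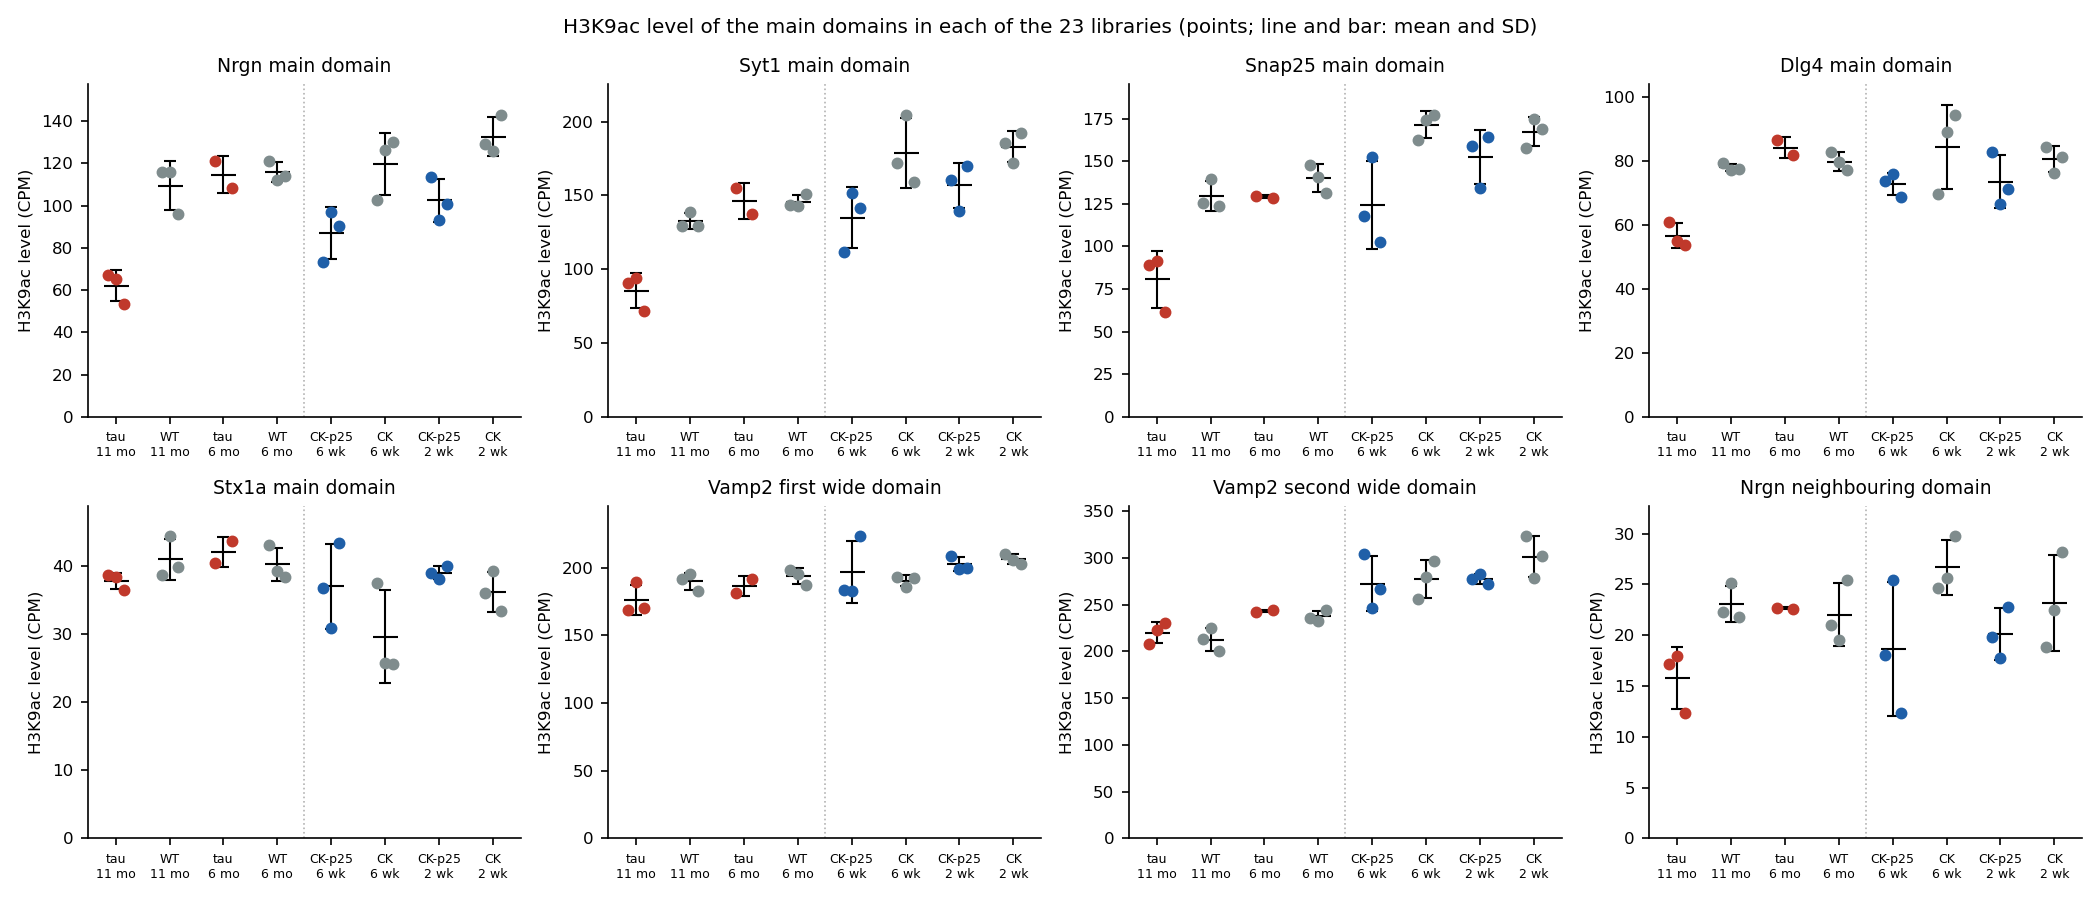
H3K9ac level (CPM, vertical axis from 0) of the main domains in each of the 23 libraries, by group, with the mean as a line and the SD as a bar. Red and blue points are the tau and CK-p25 libraries and grey points their controls, and the dotted line parts the models. The 11-month tau libraries sit below all others of their series for the main domains of Nrgn, Syt1, Snap25 and Dlg4, and mix with them for Vamp2.

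Of the vesicle proteins, the calcium sensor Syt1 was called lower in both models at the later time, and the SNARE Vamp2 was called in none of the 4 comparisons. The main Syt1 domain had 90.7, 93.8 and 71.8 CPM in tau libraries at 11 months, against 129, 139 and 129 CPM in wild-type libraries. No libraries overlapped, and the log2 fold change was -0.64 ± 0.07 (edgeR adjusted p = 9.18e-11), a level that fell by 35.7%. At 6 months it had 155 and 138 CPM in tau libraries, against 143, 143 and 151 CPM in wild-type libraries, a log2 fold change of 0.01 with a 95% interval of -0.14 to 0.15. In CK-p25 mice it had 112, 151 and 141 CPM at 6 weeks, against 172, 205 and 159 CPM in CK libraries. These groups did not overlap, and the log2 fold change was -0.43 ± 0.09 (edgeR adjusted p = 0.00259). At 2 weeks it had 160, 140 and 170 CPM in CK-p25 libraries, against 185, 172 and 192 CPM in CK libraries, again without overlap. It was not called there (log2 fold change -0.22 ± 0.08, 95% interval -0.39 to -0.05, edgeR adjusted p = 0.224). The CK-p25 effect at 6 weeks minus that at 2 weeks was -0.21 ± 0.13 and was not called. The 6-week call was lost without the second CK library or the first CK-p25 library. The 6 narrow Syt1 domains, which lie 302910 bp or more away from it, were called in no comparison, with at most 35 reads in any library.

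The first wide Vamp2 domain had 169, 189 and 170 CPM in tau libraries at 11 months, against 191, 196 and 183 CPM in wild-type libraries, which overlap. Its log2 fold change was -0.11 with a 95% interval of -0.22 to -0.0046 and an edgeR adjusted p of 0.188. The second wide Vamp2 domain had 207, 222 and 230 CPM in tau libraries, against 213, 225 and 200 CPM in wild-type libraries, a log2 fold change of 0.05 with a 95% interval of -0.05 to 0.16. The second was called higher when the offset of each library was allowed to vary with the level of a domain (loess offsets), with a log2 fold change of 0.19 (edgeR adjusted p = 0.00378), and the first was called lower without the second tau library (edgeR adjusted p = 0.040). At 6 weeks the first had 184, 183 and 223 CPM in CK-p25 libraries, against 193, 186 and 193 CPM in CK libraries, and a 95% interval of -0.14 to 0.18 on the log2 scale. At 2 weeks it had 208, 199 and 200 CPM in CK-p25 libraries, against 210, 206 and 203 CPM in CK libraries, and an interval of -0.17 to 0.12. The second had 304, 246 and 267 CPM in CK-p25 libraries at 6 weeks, against 256, 280 and 296 CPM in CK libraries, and an interval of -0.16 to 0.15. At 2 weeks the second had 278, 283 and 272 CPM in CK-p25 libraries, against 323, 279 and 302 CPM in CK libraries, a log2 fold change of -0.11 with an interval of -0.25 to 0.03. In each of these comparisons the groups overlap. At 6 months the first had 181 and 192 CPM in tau libraries, against 199, 196 and 188 CPM in wild-type libraries, and the second 242 and 244 CPM in tau libraries, against 235, 233 and 244 CPM in wild-type libraries.

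Of the plasma membrane SNAREs, Snap25 was called lower in both models at the later time and Stx1a was called in none. The main Snap25 domain had 89.4, 91.4 and 61.3 CPM in tau libraries at 11 months, against 126, 139 and 124 CPM in wild-type libraries, without overlap. The difference was -0.69 ± 0.11 on the log2 scale (edgeR adjusted p = 0.000557). At 6 months it had 130 and 129 CPM in tau libraries, against 148, 141 and 132 CPM in wild-type libraries. The tau libraries lay below the wild-type ones there too, by a log2 fold change of -0.12 ± 0.12, and the domain was not called. At 6 weeks it had 118, 153 and 103 CPM in CK-p25 libraries, against 163, 174 and 177 CPM in CK libraries, with no overlap. The log2 fold change was -0.42 ± 0.09 (edgeR adjusted p = 0.00328), a call that was lost without the first CK-p25 library and without the pair of 6-week libraries with the fewest reads. At 2 weeks it had 159, 135 and 164 CPM in CK-p25 libraries, against 158, 175 and 169 CPM in CK libraries, which overlap, and was not called (log2 fold change -0.14 ± 0.08).

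The main Stx1a domain had 38.7, 38.3 and 36.4 CPM in tau libraries at 11 months, against 38.7, 44.3 and 39.8 CPM in wild-type libraries. The tau libraries lay below the wild-type ones by a narrow gap, with 38.69 CPM in the highest tau and 38.71 CPM in the lowest wild-type library. The log2 fold change was -0.11 with a 95% interval of -0.30 to 0.07 (edgeR adjusted p = 0.501). In CK-p25 mice at 6 weeks it had 36.8, 30.8 and 43.3 CPM, against 37.4, 25.7 and 25.6 CPM in CK libraries, a log2 fold change of 0.18 with a 95% interval of -0.13 to 0.49. These groups overlap, and 1 CK library stands well above the other CK libraries. At 2 weeks it had 38.9, 38.1 and 40.0 CPM in CK-p25 libraries, against 36.0, 39.2 and 33.3 CPM in CK libraries, and at 6 months 40.5 and 43.6 CPM in tau libraries, against 43.0, 39.2 and 38.4 CPM in wild-type libraries, again with overlap. The other 4 Stx1a domains, of 429 to 859 bp, had at most 42 reads in any library and were called in no comparison.

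Outside the widest 25% of domains, 0 of 19 members were called in tau mice at 11 months by edgeR, with 0 at an unadjusted p under 0.05. Among all domains of any width 4.40% were higher and 7.56% lower. These shares include the widest 25%, where 6.65% were higher and 18.5% lower, so they exceed those of the narrower domains. An unadjusted edgeR p under 0.05 was reached by 23.7% of all domains and 37.0% of the widest 25%. The log2 fold changes of the 19 members ran from -0.68 to 0.30 with a median SE of 0.33, against a median SE of 0.09 in the 11 wider members. A Syt1 domain of 329 bp at chr10:108134236-108134564 had 4.16, 3.65 and 5.14 CPM in CK-p25 libraries at 2 weeks, against 2.93, 1.03 and 2.56 CPM in CK libraries. The groups did not overlap, and the log2 fold change of 1.08 ± 0.47 was not called (edgeR adjusted p = 0.343). It is named here after its values were seen, as the largest positive value of any member in the 4 comparisons.

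Counted over the members, 5 of 30 domains were lower and 0 higher in tau mice at 11 months, where 7.56% of all 44105 domains tested were lower. All 5 were among the 11 members of the widest 25%, and among all domains of that width 18.5% were lower. Of the 6 members in the widest 5% of all domains (3470 bp or more), 3 were lower, those of Nrgn, Syt1 and Snap25, beside 34.6% of all domains so wide. The median log2 fold change was -0.15 over the members and 0.01 over all domains, and 25 of 30 members had a negative value. At 6 months 0 of 30 members were called by edgeR, beside 0.0% of all domains, and 0 by the Wald test of DESeq2. An unadjusted edgeR p under 0.05 was reached by 0 of 30, beside 3.23% of all domains. The median was 0.02 over the members there. In CK-p25 mice 3 of 23 members were lower and 0 higher at 6 weeks, beside 1.33% of all 38193 domains tested, and 1 of 23 was lower at 2 weeks, beside 0.613%. In the widest 25% of domains the lower share was 3.92% at 6 weeks and 1.92% at 2 weeks, and in the widest 5%, which hold all of these called members, 11.1% at 6 weeks and 5.21% at 2 weeks. The median log2 fold change was -0.0033 over the members and -0.0020 over all domains at 6 weeks, and -0.09 over the members and -0.0035 over all domains at 2 weeks. Averaged over both times, the CK-p25 effect was lower in 3 of 23 members, beside 2.75% of all domains and 18.5% of the widest 5%: the main domains of Nrgn (log2 fold change -0.40), Syt1 (-0.33) and Snap25 (-0.28). Averaged over both ages, the tau effect was lower in 4 of 30 members, beside 3.5% of all domains, 10.8% of the widest 25% and 23.1% of the widest 5%: the main domains of Nrgn (-0.42), Snap25 (-0.40), Syt1 (-0.32) and Dlg4 (-0.19). At 6 months alone the values were -0.01 at Nrgn, -0.12 at Snap25 and 0.01 at Syt1, with none called. The averages thus do not show a fall at both ages. With cross correlation as a term none of the 4 averages was called. That of Dlg4, where the 6-month value was 0.08, lost its call in 8 of 19 alternatives. That of Snap25 lost it in 3 of 19, among them leaving out either 6-month tau library.

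**Figure D3:**
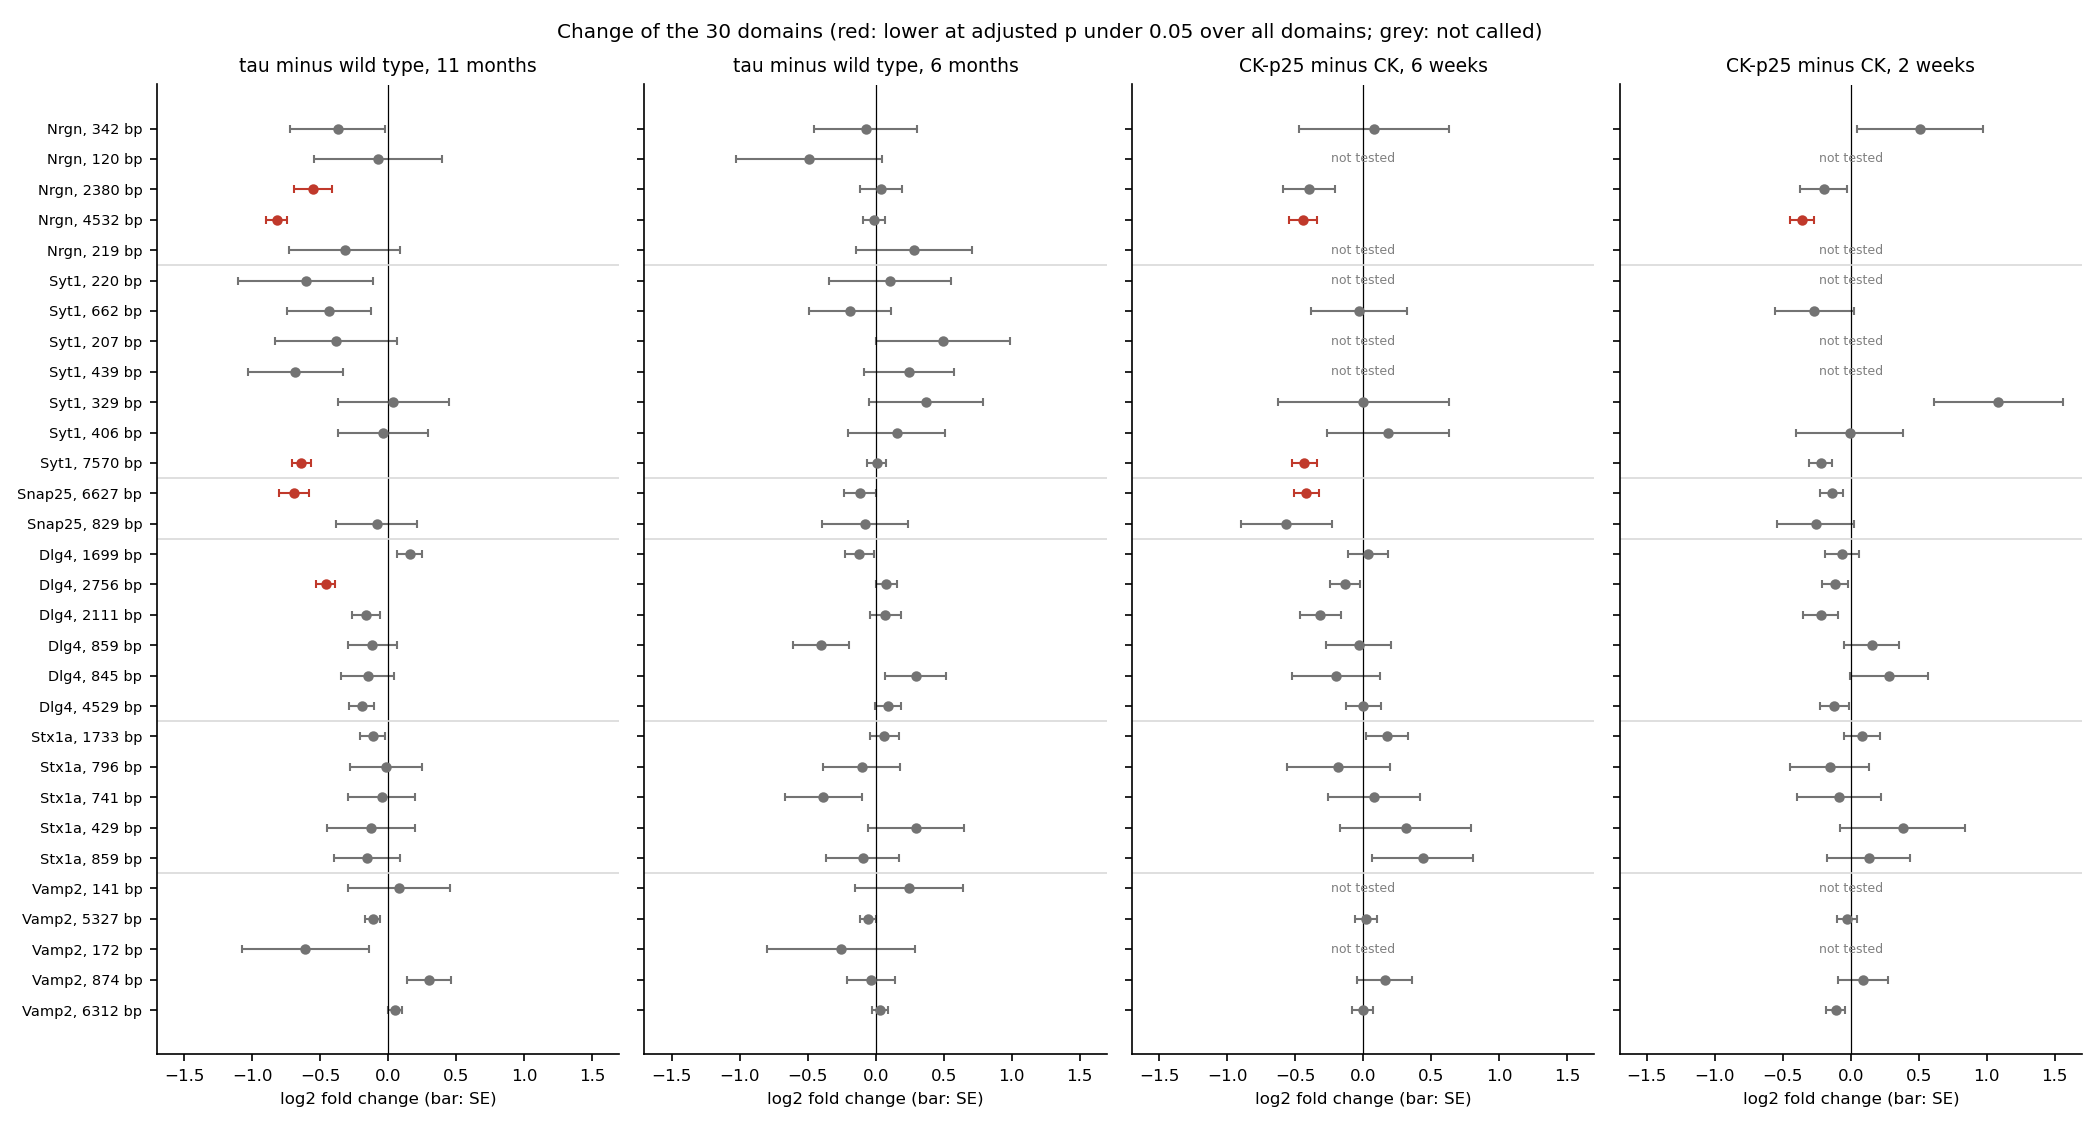
Log2 fold change with its SE (horizontal axis) of each of the 30 domains in the 4 comparisons, with the domains named by locus and width and ordered by position within a locus. Red marks domains that were lower at an adjusted p under 0.05 over all domains of the series, grey those not called, and domains too low to test are named so. The red points are 5 at 11 months, 0 at 6 months, 3 at 6 weeks and 1 at 2 weeks, and all are domains of 2380 bp or more.

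The sums over each locus gave 1 value for each window, which is not always that of 1 gene. The Vamp2 sum took 54.4% of its reads from the second Vamp2 domain, which cannot be assigned to Vamp2 or Per1. The Dlg4 sum took 18.6% from the first Dlg4 domain, on the Acadvl side. In tau mice at 11 months the Nrgn locus had 90.3, 87.5 and 73.4 CPM, against 145, 149 and 125 CPM in wild-type mice, a log2 fold change of -0.74 ± 0.07 (edgeR adjusted p in the same test on summed counts = 5.90e-13). Snap25, with -0.66 ± 0.12, Syt1, with -0.60 ± 0.06, and Dlg4, with -0.20 ± 0.05, were lower as well. The Dlg4 sum lost its call with loess offsets, without the third tau library and with cross correlation as a term (-0.10, edgeR adjusted p = 0.799), which also ended the call of the Snap25 sum (edgeR adjusted p = 0.436). The Stx1a sum had a 95% interval of -0.26 to 0.05 and the Vamp2 sum one of -0.11 to 0.08, and neither was called. With loess offsets the Vamp2 sum was called higher, by 0.18 (edgeR adjusted p = 0.00152). At 6 weeks the CK-p25 sums were lower at Snap25 (-0.43 ± 0.09), Nrgn (-0.40 ± 0.09) and Syt1 (-0.39 ± 0.09), and at 2 weeks at Nrgn alone (-0.31 ± 0.08). Without the first CK-p25 library none of the 6-week sums was called, and the 2-week Nrgn sum lost its call in 7 of 16 alternatives. Summed over all 6 loci, the level was 925 ± 49 CPM in tau and 1116 ± 51 CPM in wild-type mice at 11 months, and 1193 ± 17 CPM in tau and 1199 ± 13 CPM in wild-type mice at 6 months (SD). It was 1168 ± 28 CPM in CK-p25 and 1312 ± 61 CPM in CK mice at 6 weeks, and 1261 ± 54 CPM in CK-p25 and 1372 ± 35 CPM in CK mice at 2 weeks (SD, n = 3 each).

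**Figure D4:**
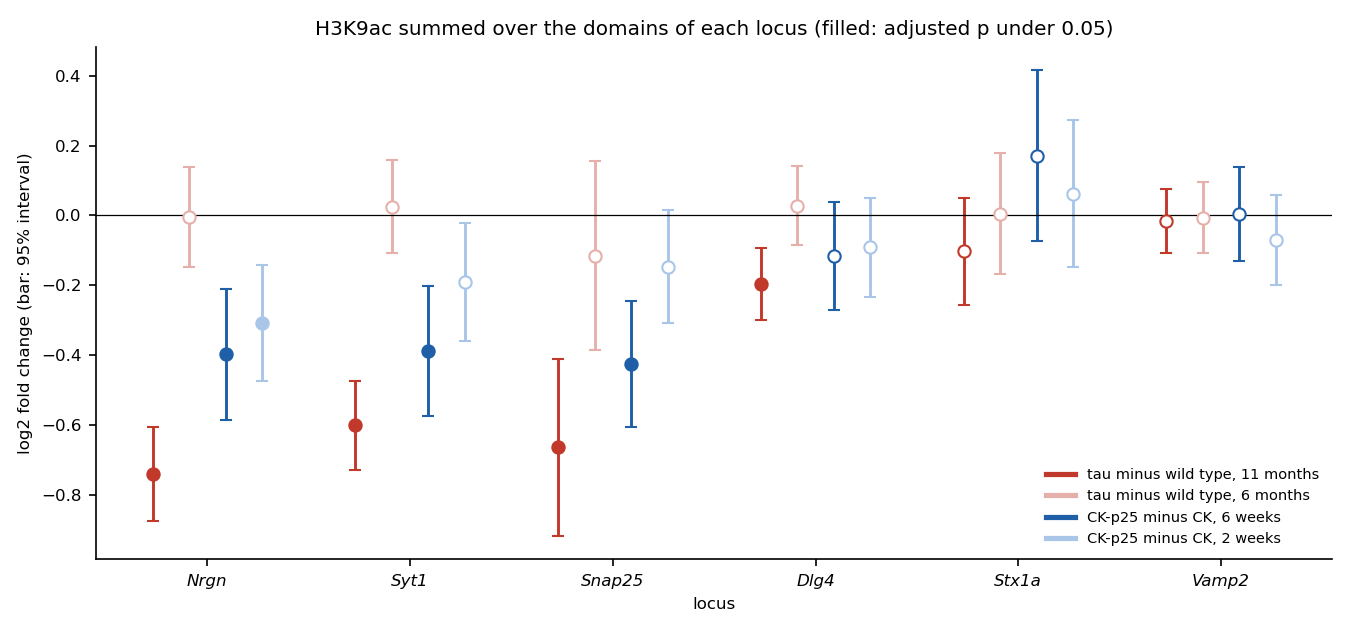
Log2 fold change (vertical axis, with 95% intervals) of H3K9ac summed over the domains of each locus, for tau minus wild type at 11 and 6 months and CK-p25 minus CK at 6 and 2 weeks. Filled points passed an adjusted p of 0.05. The 11-month tau points of Nrgn, Syt1 and Snap25 lie at -0.74, -0.60 and -0.66, and all points of Stx1a and Vamp2 are open.

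The tau effect itself differed between the ages at 3 members, all lower, beside 3.21% of all domains, 9.79% of the widest 25% and 22.5% of the widest 5%. The effect at 11 months minus that at 6 months was -0.81 ± 0.11 on the log2 scale at the main Nrgn domain (edgeR adjusted p = 6.18e-07), -0.64 ± 0.10 at the main Syt1 domain (edgeR adjusted p = 5.21e-06) and -0.54 ± 0.11 at the main Dlg4 domain (edgeR adjusted p = 0.000305). At the main Snap25 domain it was -0.57 ± 0.16 (edgeR adjusted p = 0.0652). With cross correlation as a term none of these differences was called, with an edgeR adjusted p of 0.168 at Nrgn, 0.0670 at Syt1 and 0.435 at Dlg4. Of the CK-p25 effect, 0 of 23 members differed between 6 and 2 weeks by edgeR, beside 0.00524% of all domains, and 0 by DESeq2. An unadjusted edgeR p under 0.05 was reached by 1 member (the main Snap25 domain, -0.28 ± 0.13), beside 4.76% of all domains. The main Nrgn domain had a 95% interval of -0.35 to 0.19 for that difference. Between wild-type mice at 11 and at 6 months, 0 of 30 members were called by edgeR, beside 1.45% of all domains, and 0 by DESeq2. In that comparison 5 of 30 had an unadjusted edgeR p under 0.05, beside 11.98% of all domains and 20.68% of the widest 25%. The median log2 fold change of 11 over 6 months in wild-type mice was -0.15 over the members, with 25 of 30 negative, and -0.0057 over all domains. Cross correlation was 0.296 to 0.342 in 11-month and 0.242 to 0.248 in 6-month wild-type libraries, and the sexes differed as well. Age cannot be told apart from either in these values. The 11-month wild-type libraries are part of this comparison and of that with 11-month tau mice. The second Vamp2 domain had there the smallest adjusted p, 0.103 by edgeR, with 213, 225 and 200 CPM at 11 months and 235, 233 and 244 CPM at 6 months. Between CK mice at 6 and at 2 weeks, 0 of 23 were called by edgeR, beside 0.00262% of all domains, and 0 by DESeq2. An unadjusted edgeR p under 0.05 was reached by 0 of 23, beside 5.51% of all domains.

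The 11-month tau and wild-type libraries were also set apart by cross correlation. With cross correlation as a further term, the main Syt1 domain was still called (log2 fold change -0.57, edgeR adjusted p = 0.0259), and the main Nrgn domain had -0.52 (edgeR adjusted p = 0.0689), the main Snap25 domain -0.64 (edgeR adjusted p = 0.351), the neighbouring Nrgn domain -0.55 (edgeR adjusted p = 0.481) and the main Dlg4 domain -0.28 (edgeR adjusted p = 0.482). Since these libraries do not overlap in that measure, it and the genotype cannot be told apart there. In the CK-p25 series the mean cross correlation at 6 weeks was 0.131 in CK-p25 and 0.0928 in CK libraries, and the same term left the 6-week values of the main Snap25 (-0.43, edgeR adjusted p = 0.0121) and Syt1 (-0.34, edgeR adjusted p = 0.0354) domains called and not that of Nrgn (-0.34, edgeR adjusted p = 0.0828).

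Among the other 247 domains within 500 kb of the windows, calls in tau mice at 11 months went both ways, with 14 higher (5.67%) and 15 lower (6.07%), beside 4.40% higher and 7.56% lower among all domains. Around Nrgn 4 of 32 were lower and 0 higher, around Syt1 0 of 14 were lower and 1 higher, and around Snap25 1 of 12 was lower and 0 higher. The flanks of Vamp2 and Dlg4 overlap, and any domain in both was counted around Dlg4 only. Around Dlg4 4 of 76 were lower and 7 higher, around Vamp2 5 of 54 were lower and 2 higher, and around Stx1a 1 of 59 was lower and 4 higher. Among the 225 of them tested in the CK-p25 series, all calls were higher. They were 3 at 6 weeks (1.33%, beside 1.32% of all domains higher) and 5 at 2 weeks (2.22%, beside 1.51%), with 0 lower at either time by edgeR.

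For each main domain, the domain elsewhere with the most similar course was sought among 18641 domains of at least 10 CPM, by Pearson's r of log2 CPM over the 23 libraries, centred within each series. For Nrgn it was chr6:117961562-117966224 (4663 bp, r = 0.967), with a log2 fold change of -0.91 in tau mice at 11 months. For Snap25 it was chr11:41812223-41814548 (2326 bp, r = 0.962) and for Syt1 chr7:119368485-119378212 (9728 bp, r = 0.951). For Dlg4 it was chr5:117038425-117042969 (4545 bp, r = 0.914). For Stx1a the highest r was 0.869, and for the second Vamp2 domain it was 0.839, at chr9:48535728-48546269. Centring within a series leaves differences between groups in r, so the log2 fold change of a matched domain is no separate result. Immunoprecipitation quality that differs between libraries could also enter r, which was not tested. The 99th percentile of r over all candidates was 0.904 with Nrgn, 0.898 with Snap25 and 0.875 with Syt1. It was 0.825 with Dlg4, 0.618 with Stx1a and 0.510 with Vamp2.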

How the data were processed

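H3K9ac was measured by chromatin immunoprecipitation and single-end sequencing of flash-frozen hippocampus, per the labels' protocols. The authors deposited raw read counts for each library over a common set of 44165 domains, with no normalization. The submitters' processing notes name BWA, Picard 1.1175, MACS2 and build mm9, and the roles and parameters of the tools are not given in the sources used here. Count columns were matched to libraries by their labels, and 0 were left without a sample. The 30 members overlap 6 mm9 windows. The members, windows and lists were chosen with earlier results of these data known.

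The test across domains was that of edgeR 4.0.16 under R 4.3.3 (quasi-likelihood F test, robust dispersions, TMM factors, filterByExpr by group). Each model had its own fit, of 11 tau-series or 12 CK-p25-series libraries, with 1 mean for each group. P-values are two-sided and adjusted by Benjamini-Hochberg over all domains of the fit. Each SE is the absolute log2 fold change divided by the root of its F value. Locus sums were tested with the members of each locus replaced by 1 summed row. The fit was also run on counts simulated from the means, library sizes and dispersions of these data. Those counts hold no difference in immunoprecipitation quality, so that run cannot speak to one. Nothing states that libraries of a group came from separate animals, so p-values measure the spread between libraries, which may be technical. Where no member was called, DESeq2 1.42.0 gave a further count.

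Values in each library are given for the main domain (highest mean CPM) of each locus and for the first wide Vamp2 domain, and changes for members past the threshold. Alternatives were other scalings, filters, thresholds and windows, DESeq2, a replicate block, cross correlation as a term and leaving out each library. Other synaptic genes and cell type markers were not analysed here, since no mm9 annotation was at hand. Promoter coordinates are on GRCm38.p6 and domain coordinates on mm9, both 1-based, and the builds were not joined.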

Additional observations from a re-analysis of the deposited data

Results flagged for a closer look

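The effect of the tau transgene differed between 11 and 6 months, by a test of the difference itself, at 3 domains and 2 locus sums. The effect at 11 months minus that at 6 months was -0.807 on the log2 scale at the main Nrgn domain, -0.644 at the main Syt1 domain and -0.537 at the main Dlg4 domain. For the sums over a locus it was -0.734 at Nrgn and -0.626 at Syt1. With cross correlation as a term, only the Syt1 sum was still called (edgeR adjusted p = 0.0348). That measure and the genotype cannot be told apart at 11 months. The 11-month mice were male and the 6-month mice female, so age and sex cannot be told apart in these values. Groups of 2 or 3 libraries are too small for a test of single samples that stand apart, and none was run.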

How the results depend on the processing

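The counts in this section stand without the share of all domains called under the same alternative. They do not show whether the members changed more than domains at large. With cross correlation added as a term, the counts of members called came to 1 in tau mice at 11 months, 0 for the difference between the ages, 0 for the tau average and 0 in CK-p25 mice at 2 weeks. The locus sums called came to 2 at 11 months, 1 for the difference between the ages, 0 for the tau average, 1 in CK-p25 mice at 6 weeks and 0 at 2 weeks under the same term. In CK-p25 mice at 2 weeks the DESeq2 Wald test called 0 members and 0 locus sums, and loess offsets and a threshold of 0.01 called 0 locus sums. With both 6-week libraries of fewest reads left out, an alternative chosen after seeing the data, 1 locus sum was called at 6 weeks. With wild-type mice of both ages fitted alone, 1 member was called between the ages. Leaving out 1 library at a time gave 4 to 6 members at 11 months, 0 to 1 at 2 weeks, 0 to 3 at 6 weeks, 3 to 5 for the difference between the ages (5 without the second 11-month tau library) and 2 to 4 for the tau average (2 without the second 6-month tau library). For the locus sums these ranges were 0 to 1 at 2 weeks (0 without the second CK library, the third CK library or the second CK-p25 library) and 0 to 3 at 6 weeks. The 6-week counts fell to 0 members and 0 sums without the first CK-p25 library and to 1 member and 1 sum without the second CK library. Of 71 values followed, the sign turned under some alternative in 16, all of them uncalled in the main test, and 1 of the 37 turned values was called. With loess offsets the first wide Vamp2 domain came to 0.0147 at 11 months and 0.0383 at 2 weeks, the second to 0.108 at 6 weeks, and the Vamp2 sum to 0.18 at 11 months (called) and 0.0301 at 2 weeks. With library totals the Vamp2 sum came to 0.0323 at 11 months and the second Vamp2 domain to 0.0164 at 6 weeks. With cross correlation as a term the second Vamp2 domain came to -0.0324 at 11 months and 0.0146 at 6 weeks, and the Stx1a sum to 0.0317 at 11 months. With the replicate block the second Vamp2 domain came to 0.00344 at 6 weeks and the Nrgn sum to 0.00110 at 6 months. With both 6-week libraries of fewest reads left out, the first Vamp2 domain came to -0.0525 and the second to 0.0516 at 6 weeks. Leaving out 1 library at a time spanned 0 at 6 months for the main domains of Nrgn (-0.0892 to 0.0619) and Syt1 (-0.0783 to 0.0863) and for the sums of Nrgn (-0.0520 to 0.0412), Stx1a (-0.0449 to 0.0551), Syt1 (-0.0440 to 0.0913) and Vamp2 (-0.0283 to 0.0190). It did so at 11 months for the Vamp2 sum (-0.0510 to 0.0205), at 2 weeks for the Stx1a sum (-0.00015 to 0.166) and at 6 weeks for the first (-0.0574 to 0.0657) and second (-0.110 to 0.0826) Vamp2 domains and the Vamp2 sum (-0.0250 to 0.0717). The cause was not tested. Across all alternatives run for them, the CK-p25 average stayed lower at the main domains of Nrgn, Syt1 and Snap25 in 21 of 21. Same-numbered libraries had correlations of -0.0142 to 0.110 over 11 pairs, so the numbers were not taken as pairs, and with the replicate block 5 members were called for the difference between the ages, 5 at 11 months, 0 at 6 months, 1 at 2 weeks and 3 at 6 weeks. The narrow domains were measured less precisely: the median SE of the log2 fold change at 11 months was 0.33 over the members outside the widest 25% of domains and 0.09 over those in it.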
